A study of Drosophila melanogaster with 9 samples.

Results

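Total RNA from testes in which *U2af38* had been knocked down was compared with total RNA from testes in which *SRPK* had been knocked down, across all genes, with 3 libraries per knockdown out of 9 libraries in the series. The libraries were chosen by their titles, U2af38 RNAi and SRPK RNAi, and the 3 remaining libraries, titled Control, serve here as the level from which each knockdown departed. Both knockdowns were germline RNAi in *Drosophila melanogaster* driven by *bam*-GAL4, which is active in late spermatogonia and spermatocytes, so that other cells of the testis were not targeted. Control flies came either from the parental driver stock or from the same cross. Males were 1 to 3 days old and raised at 25°C. The replicates are named biological replicates in the labels, each from testes of many males pooled, and which of the RNAi lines of each gene was sequenced is not given in the sources used here.

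U2af38 is the small subunit of U2AF, the dimer that marks the 3′ end of introns: its large partner binds the polypyrimidine tract and the small subunit contacts the AG at the intron's last bases, which brings the U2 snRNP to the branch point. SRPK is a kinase that phosphorylates the arginine-serine domains of SR proteins, the family that helps define exons and recruits U1 and U2AF, so it acts on splicing through those proteins. In the fly testis, spermatogonia divide, become spermatocytes that grow over days while transcribing most genes needed later, and then divide meiotically into spermatids, which elongate with very little new transcription. A spermatocyte-specific transcription programme run by the tMAC complex and testis TAFs (testis forms of TATA-binding protein-associated factors) turns these genes on.

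The splice junctions at which U2AF and the U1 snRNP act are shown for *kl-3*, a Y-linked axonemal dynein gene with introns far longer than usual, from the junction targets of the study's RNA in situ probes. Exon and intron letters are in lower case, and capitals mark the first 2 bases of the intron (GT, the 5′ splice site) or its last 2 bases (AG, the 3′ splice site contacted by the small U2AF subunit).
kl-3 exon 1 to intron 1, chromosome Y: tcgaaacttttaaacGTaagttactttgtc
kl-3 intron 1 to exon 2, chromosome Y: tttttttgtttctAGcgctgggctgaaatc

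The deposited values were counted fragments per gene, and levels are given as CPM, fragments relative to the library total after scaling with edgeR's TMM factors. Between 18497748 and 20774681 fragments were counted in the U2af38 RNAi libraries and between 25185322 and 28412334 in the SRPK RNAi libraries. A level resting on 3 fragments or fewer, which is at most 0.135 CPM in these 6 libraries, was taken as the floor, and this covers counting error only. Although they were shallower, the U2af38 RNAi libraries had a fragment on more genes, 16362 to 16427 against 15134 to 15296. The TMM factors of U2af38 RNAi were 1.30 to 1.32 and those of SRPK RNAi 0.881 to 0.945, so the choice of scaling moves every difference. The libraries held testis RNA by the markers *betaTub85D*, a germline tubulin (2360 and 1446 CPM in SRPK and U2af38 RNAi), *aly* (40.6 and 40.9) and *bam* (11.5 and 7.43).

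The targeted genes separated the knockdowns as labelled. *U2af38* (chromosome 2L, 292959 to 294681, dm6) was at 2.46, 4.38 and 3.1 CPM in the 3 U2af38 RNAi libraries and at 53.5, 50.3 and 47.5 in the 3 SRPK RNAi libraries, a log2 difference of -3.92, SE 0.15, adjusted p = 2.31e-10. Every adjusted p is from the quasi-likelihood test of edgeR, adjusted by the Benjamini-Hochberg method over all tested genes. *SRPK* (chromosome 2R, 15380724 to 15387851) was at 69, 64.5 and 68.1 CPM in SRPK RNAi and at 610.5, 588 and 658 in U2af38 RNAi, a log2 difference of 3.20, SE 0.07, adjusted p = 7.71e-12 (edgeR). The *SRPK* level in U2af38 RNAi was also above the control values of 274, 248 and 281 CPM. Related genes differed less: *U2af50*, the large U2AF subunit, had a log2 difference of 0.03 and did not pass the test, *LS2*, a testis-enriched relative of *U2af50*, was lower in U2af38 RNAi (-0.82), and so was *Srpk79D*, the other SR protein kinase of the fly, at 184, 183 and 200.1 CPM against 339, 328 and 344 (-0.83).

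The knockdowns differed across most of the genome. Of 14941 genes with enough counts to test, 6313 were higher in U2af38 RNAi and 5622 were lower at an adjusted p under 0.05, which is 79.9% of genes in either direction, 42.3% higher and 37.6% lower. These shares are the background against which the counts of every gene class below are read. When the test required a difference of more than 1 on the log2 scale, 3203 genes were higher and 2299 lower. The split depended on the scaling: with library size alone 9069 genes were higher and 3470 lower (72.3% of calls higher, against 52.9%), and with scaling on the cytoplasmic ribosomal protein genes 4583 were higher and 7451 lower (38.1%). These scalings moved the median of all genes, which was 0.067, by 0.52 and -0.36, and lists are therefore read against that median and, where their direction flips, with both scalings. Control libraries lay nearer to SRPK RNAi than to U2af38 RNAi for 5659 of the 6313 higher genes (89.6%) and for 4812 of the 5622 lower genes (85.6%). The control mean fell between those of the knockdowns for 2307 of the higher and 1933 of the lower genes. For most of the others it lay beyond SRPK RNAi, on the side away from U2af38 RNAi (3765 and 3344 genes).

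The difference between the knockdowns varied with how strongly a gene was read in control testes. When protein-coding genes that passed the filter were divided into 5 equal groups by their control level, the lowest group had a median log2 difference of 2.77, with 2063 of 2533 genes higher in U2af38 RNAi and 97 lower. The highest group had a median of -0.75, with 404 genes higher and 1855 lower. Between these ends the median fell in order, from 0.25 to -0.059 and -0.20. Typical levels in the lowest group were a median of 0.3 CPM in SRPK RNAi and 1.64 CPM in U2af38 RNAi, and in the highest group 200.4 and 136 CPM. Genes of the lowest group can have passed the filter through their U2af38 RNAi counts, so the genes at the floor are taken up next with the untested ones included.

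**Figure D1:**
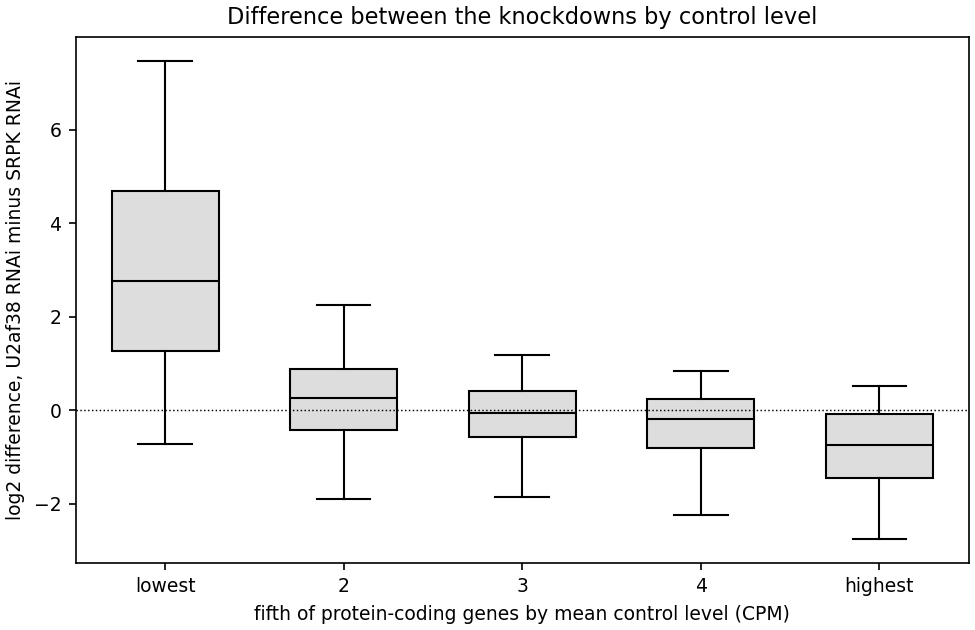
Log2 difference (U2af38 RNAi minus SRPK RNAi, vertical axis) of tested protein-coding genes in 5 equal groups by their mean control CPM (horizontal axis); boxes span the quartiles, the line is the median and whiskers reach the 5th and 95th percentiles. The median falls from 2.77 in the lowest group to -0.75 in the highest.

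Genes that control testes did not read were read at a low and broadly spread level in U2af38 RNAi. Of the 13932 protein-coding genes in the table, 1888 had at most 3 fragments in every control library, and 862 of these passed the filter. Summed over all 1888, tested or not, and divided by their exonic length, the level was 0.0454, 0.0496 and 0.0447 CPM per kb in the 3 SRPK RNAi libraries and 0.801, 0.783 and 0.927 in the 3 U2af38 RNAi libraries, without overlap. The mean was 18 times as high in U2af38 RNAi, and 25.8 times with scaling on library size alone. In control, where the genes were chosen to be low, the values were 0.0163, 0.0176 and 0.0149 CPM per kb. The mean level was higher in U2af38 RNAi for 1307 of these genes and higher in SRPK RNAi for 81, with 500 at 0 in all 6 libraries. More than 3 fragments in each of 3 libraries were seen in U2af38 RNAi for 1030 genes, against 79 in SRPK RNAi. The whole set took 0.292% of the counted fragments in U2af38 RNAi and 0.0114% in SRPK RNAi.

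Position and structure of these genes were compared with their level. On the X chromosome, where 284 of them lie, U2af38 RNAi libraries read 0.87, 0.863 and 1 CPM per kb, against 0.785, 0.765 and 0.91 on chromosomes 2 and 3. The X level was 1.1 to 1.13 times the autosomal one in each U2af38 RNAi library and 0.528 to 1.04 times in the SRPK RNAi libraries, where 1 library reached the autosomal level. Of the 4 such genes on the Y, 1 was higher in U2af38 RNAi, 1, *Pp1-Y1*, was higher in SRPK RNAi and 2 had no fragment in the 6 libraries. Genes lying inside another gene on the same strand (133) had the lowest U2af38 RNAi level, 0.11, 0.105 and 0.127 CPM per kb, and fragments shared with exons of such a host were not counted. Genes inside a gene on the other strand only (260) were at 1.08, 1.1 and 1.27 CPM per kb, and genes inside no gene (1495) at 0.855, 0.829 and 0.986. By the nearest upstream gene on the same strand, the U2af38 RNAi level differed by little: it averaged 0.803 ± 0.0707 CPM per kb (SD, n = 3) where a gene on the same strand ended within 1 kb upstream, 0.868 ± 0.0764 at 1 to 10 kb and 0.821 ± 0.0918 beyond 10 kb. Within every U2af38 RNAi library the level at 1 to 10 kb was the highest of the 3. Genes with 1 exon block (exons merged over all isoforms, so that some of them still have an intron) and genes with more were close in U2af38 RNAi, at 0.847 ± 0.0993 and 0.835 ± 0.0739 CPM per kb (SD, n = 3).

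**Figure D2:**
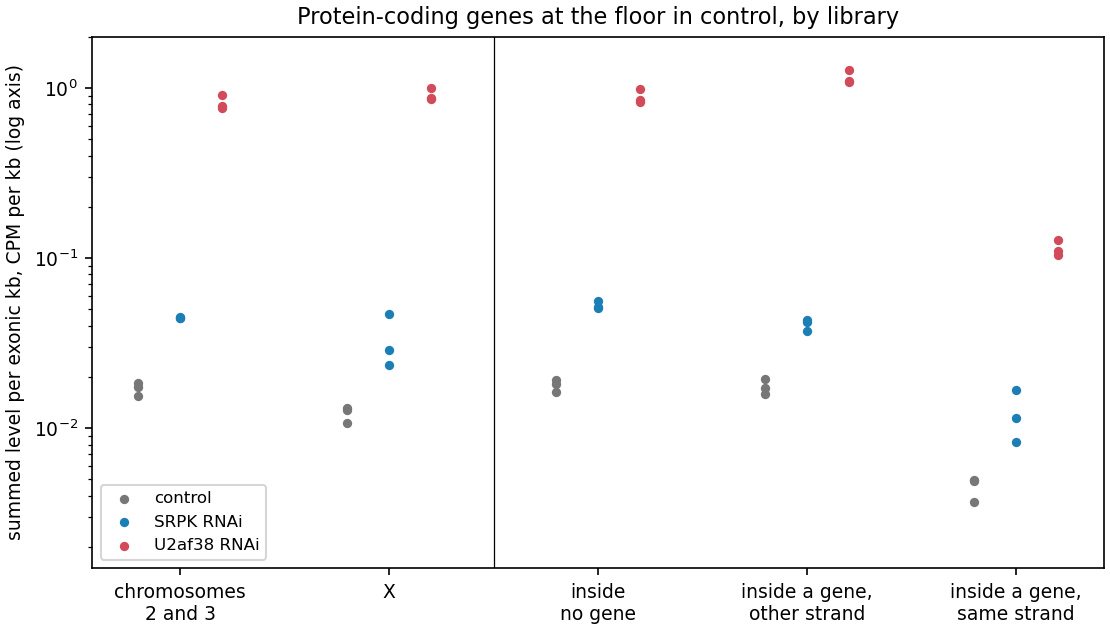
Summed level per exonic kb (CPM per kb, log axis) of the protein-coding genes with at most 3 fragments in every control library, on chromosomes 2 and 3 together and on the X (left of the line) and by position relative to other genes (right), with 1 point per library. All 3 U2af38 RNAi points lie above the SRPK RNAi points in each of the 5 sets plotted, and the set inside a gene on the same strand is lowest.

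Receptor and immune genes with known functions outside the testis had higher summed levels in U2af38 RNAi. In what follows, a pair given as one set of values against another is U2af38 RNAi against SRPK RNAi, SE is the standard error of the log2 difference, and the members named in each list are those with the largest control CPM, not divided by length, and the largest called differences. The odorant, gustatory and ionotropic receptors, membrane receptors of chemosensory neurons, numbered 186 with 143 tested. Tested members can have passed the filter through U2af38 RNAi alone, so no calls are counted for this list or the next. Over all 186 receptors the summed level was 128, 124 and 132 CPM in SRPK RNAi and 343, 329 and 396 CPM in U2af38 RNAi. In control it was 151, 139.7 and 147 CPM. The genes at the floor in control, described above, went the same way as a set. *Ir92a*, an ionotropic receptor, had no fragment in any SRPK RNAi library and 5.29, 4.49 and 6.53 CPM in U2af38 RNAi, where the floor of 3 fragments per library is at most 0.135 CPM. The list was not uniform. *Gr28a*, a gustatory receptor, was lower in U2af38 RNAi, at 0.164, 0.185 and 0.363 CPM against 1.9, 1.9 and 1.85 (-2.96, SE 0.28, adjusted p = 8.38e-07, edgeR), and *Ir85a* was at 4.56, 4 and 5.6 against 6.84, 9.31 and 11.4 CPM (-0.96). Antimicrobial peptide genes encode secreted effectors of innate immunity made mostly in the fat body, and 10 of the 16 listed were tested. Over all 16 the summed level was 21.1, 18.6 and 20.9 CPM against 9.44, 10.9 and 7.58 in SRPK RNAi. *Mtk*, the antifungal peptide metchnikowin, was at 2.63, 3.04 and 3.51 CPM against 0.081, 0.0388 and 0, while *AttB*, an attacin, was lower (-0.90).

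Markers of neurons showed genes moving both ways. The summed level of 10 neuronal markers was 102, 95.1 and 105 CPM in SRPK RNAi and 185, 181 and 209.6 in U2af38 RNAi. Members such as *VGlut* can have passed the filter through U2af38 RNAi alone, so calls are not counted here either. *VGlut*, the vesicular glutamate transporter, was at 2.87, 3.19 and 3.02 CPM against 0.364, 0.194 and 0.0451, whereas *brp*, a scaffold of presynaptic active zones, was lower, at 6.32, 5.75 and 8.83 against 31.1, 26.3 and 32.7 (-2.11, SE 0.14). The pan-neuronal markers *elav* (-0.091) and *nSyb* (-0.19) did not pass the test. Sodium channel *para*, named after its values were seen, averaged 46.2 CPM in U2af38 RNAi, against 3.72 in SRPK RNAi. The neuronal list held members far apart in both directions.

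Genes of the later sperm programme were lower in U2af38 RNAi. The *cup* genes are transcribed after meiosis, with their messages at the tips of elongating spermatid bundles. Their list, which also holds other genes transcribed after meiosis, had a median log2 difference of -1.95 (relative to all genes -2.02). Of its 17 tested members, 0 were higher and 16 lower. *wa-cup* was at 234, 263 and 283 CPM in SRPK RNAi and at 17.5, 18.4 and 22.3 in U2af38 RNAi (-3.74, SE 0.10, adjusted p = 2.26e-11, edgeR), and *w-cup* at 3354, 3458 and 3799 CPM in SRPK RNAi and 436, 462 and 504 in U2af38 RNAi (-2.92). The members ranged widely, since *r-cup* did not pass the test (0.029) and *soti*, needed for sperm individualization, was only slightly lower (-0.12). By the study's microscopy, U2af38 RNAi germ cells stopped as spermatocytes before the meiotic divisions, whereas those of SRPK RNAi looked normal at every stage. In bulk RNA alone, fewer cells of a stage and less RNA per cell cannot be told apart. The part of the arrest in these differences was not tested.

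Structural genes of the sperm tail showed the same direction. All 7 *Mst(3)CGP* genes, which encode cysteine-, glycine- and proline-rich proteins of the tail, were lower, with a median of -1.81. Without SRPK RNAi replicate 2, 5 of them were lower and the median was -1.03, and 6 were lower with DESeq2, with library size alone and without any one of the U2af38 RNAi libraries. *Mst98Ca* was at 969, 1071 and 1024 CPM against 1825, 2014 and 2314 (-1.01, SE 0.088). *Mst84Dd* was at 153, 54.6 and 94.3 against 411, 916 and 696 (-2.75, SE 0.39), with a wide spread between libraries. The 4 clustered *Mst84D* genes resemble each other in sequence, so their separate counts are uncertain. Among the axonemal dynein heavy chains encoded off the Y chromosome, the motor subunits that bend the flagellum, 6 of 7 were lower and 1 was higher. *Dnah3* was at 76.6, 79.6 and 98.7 CPM against 933, 948 and 1058 in SRPK RNAi (-3.53, SE 0.14, adjusted p = 2.36e-10, edgeR). *CG3339*, also annotated as an axonemal dynein heavy chain, was higher, at 77.8, 77.2 and 94.9 against 22.6, 20.2 and 20.5 CPM (1.98, SE 0.095). Of 16 other axoneme and flagellum genes, 12 were lower and 2 higher (median -0.88). *salto*, read at 3042, 3222 and 3555 CPM in SRPK RNAi, was at 1626, 1759 and 1754 (-0.93), and *nompB*, an intraflagellar transport protein used in sensory cilia, was higher (1.39), although its SRPK RNAi libraries spread from 1.58 to 7.49 CPM.

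Chromatin and mitochondrial proteins of the spermatid followed. All 8 sperm chromatin genes were lower (median -1.12). *Mst77F*, a linker histone-like protein of condensed sperm DNA, was at 1062, 1140 and 1047 CPM against 2319, 2306 and 2572 (-1.15, SE 0.069), *Tpl94D*, a transition protein, was at 99, 100.1 and 104 against 522, 596 and 674 (-2.56, SE 0.087), and the protamine genes *ProtA* and *ProtB*, near-identical copies whose separate counts are uncertain, differed by -1.17 and -1.18. All 7 genes of the mitochondrial derivative, the giant paired mitochondria that run along the tail, were lower (median -0.97). *dj* (don juan) was at 309, 319 and 305 CPM against 1304, 1430 and 1487 (-2.18, SE 0.065), while *loopin-1*, at 3357, 3601 and 3532 against 5250, 5785 and 6375, and the mitofusin *fzo* (-0.21) differed less. The sperm leucyl aminopeptidases, the most abundant proteins of fly sperm, were all lower by a similar amount: 7 of 7, between -1.20 (*S-Lap2*, 1174, 1247 and 1171 against 2484, 2735 and 3020 CPM) and -0.65 (*S-Lap5*), with *S-Lap1* at 3892, 4039 and 3896 against 5821, 6926 and 7501 CPM (-0.78). Sperm individualization uses caspases without cell death, and its genes were split: 8 of 11 were lower, among them *jar* (myosin VI; 105, 131 and 128 against 809, 914 and 988 CPM, -2.90) and *Cul3*, a ubiquitin ligase scaffold (-1.40), and 2 were higher, *Drice* and the initiator caspase *Dronc* (62.3, 63.1 and 61.2 against 39.3, 34.9 and 34.7 CPM, 0.78). The *cup*, sperm tail, axoneme, dynein, chromatin, mitochondrial derivative, aminopeptidase and individualization lists all kept more lower than higher members under each scaling tried. Strongly read genes were mostly lower as a whole: the highest control group had a median of -0.75 and quartiles of -1.46 and -0.091, with 1855 of 2533 lower. The *cup*, *Mst(3)CGP* and dynein medians lay below that lower quartile, and the medians of the other lists lay between the quartiles.

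**Figure D3:**
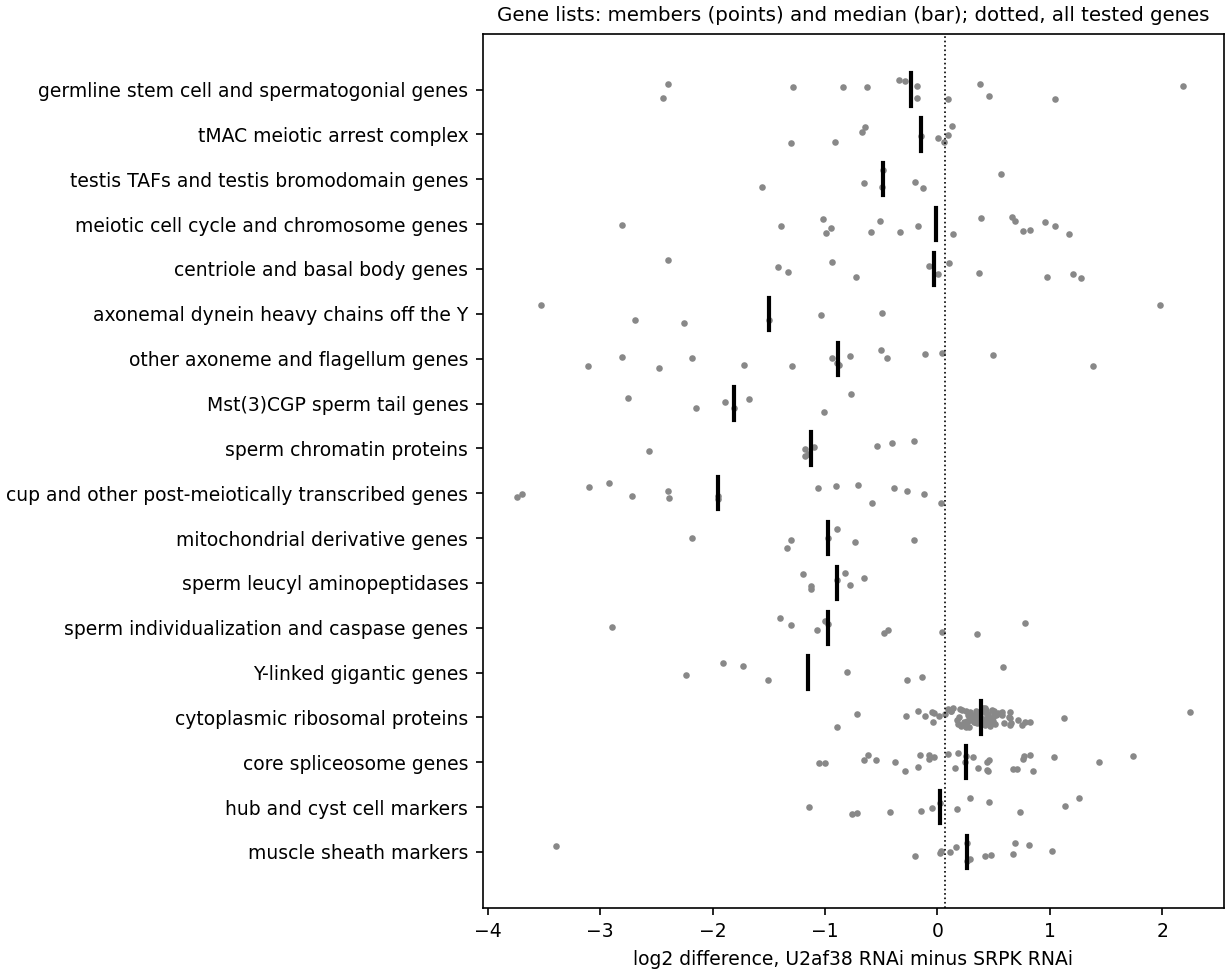
Log2 difference (U2af38 RNAi minus SRPK RNAi, horizontal axis) of every tested member (points) of 18 gene lists (vertical axis), with the list median as a bar and the median of all tested genes, 0.067, as a dotted line. Lists of the late sperm programme have medians between -0.88 and -1.95, whereas those of tMAC, meiotic and centriole genes lie close to the dotted line.

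Regulators of this programme had medians nearer to that of all genes. Of 9 tMAC genes, 4 were lower and 0 higher, and the median was -0.14. *tomb*, a DNA-binding subunit, was lowest, at 7.47, 8.38 and 9.07 CPM against 22.1, 20.8 and 18.7 (-1.31, SE 0.11), and *vis*, a TGIF-type homeodomain subunit with a near-identical neighbour, *achi*, was at 100.4, 95.4 and 100.5 against 174, 157 and 142 (-0.67). *aly* (0.0095) and *topi* (-0.14) did not pass the test. Of 7 testis TAF and testis bromodomain genes tested, 5 were lower, led by *sa* (spermatocyte arrest; 25.1, 23.7 and 22.5 against 73.6, 65.5 and 71.3 CPM, -1.56, SE 0.069), and *nht*, the testis TAF4, was higher (31.6, 33 and 33.9 against 24.5, 23.3 and 18.7 CPM, 0.57). *tbrd-2*, a bromodomain partner of the testis TAFs, was at 200.2, 199 and 202 against 306, 271 and 271 (-0.50), a difference that was 0.021 on library size alone. With that scaling 5 tMAC genes were higher and 2 lower, and 3 testis TAF and bromodomain genes were higher and 1 lower, so the direction of both lists depends on the scaling.

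Genes of the mitotic and meiotic cell cycle were divided. Of 18, 8 were higher and 9 lower, against 11 and 5 on library size alone and 6 and 9 on ribosomal protein genes. *fzy*, the Cdc20 activator of the anaphase-promoting complex, was at 167, 166 and 163 CPM against 79.7, 74 and 65.9 in SRPK RNAi (1.17, SE 0.071, adjusted p = 1.19e-08, edgeR). The kinases *aurA* (1.05) and *polo* (0.76) and the cyclins *CycB* (0.95) and *CycA* (0.69) were higher as well, all 4 named after their values were seen. *bol* (boule), an RNA-binding protein needed for meiotic entry, was at 576, 600.2 and 634 against 1221, 1148 and 1288 CPM (-1.01). *SA2*, a male-specific cohesin-like protein that holds homologous chromosomes paired in male meiosis, lay on opposite sides of control in the knockdowns: it was at 13.7, 14 and 12.3 CPM in U2af38 RNAi, 27.3, 29 and 26 in control and 99.2, 93.7 and 86.1 in SRPK RNAi (-2.80, SE 0.08, adjusted p = 2.73e-11, edgeR). In the germline stem cell and spermatogonial list, 4 of 14 were higher and 6 lower, against 7 higher and 4 lower on library size alone. *stg*, the Cdc25 phosphatase of mitotic divisions, was at 7.84, 8.31 and 7.74 CPM against 2.23, 1.51 and 1.49 (2.19), and *Rbp9*, an RNA-binding protein of the Hu family, at 44, 44.9 and 49.8 against 282, 242 and 228 (-2.44). The differentiation factors *bam* (-0.63) and *bgcn* (-1.28) were lower. *nanos* (-0.18) and *vas* (0.10), which mark early germ cells, did not pass the test.

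Centriole genes moved in both directions, 4 higher and 5 lower of 12, against 7 and 5 on library size alone and 3 and 8 on ribosomal protein genes. *ana2*, a core component of the centriole cartwheel, was at 10.9, 12 and 11.8 against 62.6, 57.5 and 62.5 CPM (-2.39, SE 0.072), and *ana3*, another centriole protein, at 386, 371 and 401 against 175, 156 and 147 (1.27, SE 0.073). The centrosomal scaffold *cnn* was at 625, 595 and 626 CPM in U2af38 RNAi, against 590.3, 608 and 639 in SRPK RNAi, with overlapping libraries (0.0074, adjusted p = 0.913, edgeR). Among tubulins, the testis-specific *betaTub85D* was lower (-0.71), *alphaTub84D* was at 158, 172 and 173 against 420.5, 486 and 501 (-1.49), and *alphaTub67C*, the maternal isotype, was higher, at 3.86, 2.6 and 3.59 against 0.446, 0.155 and 0.135 CPM (3.73). *alphaTub84B* was lower by the main scaling (-0.35) and higher on library size alone (0.17). Of 9 tubulin genes tested, 3 were higher and 4 lower, against 7 and 2 on library size alone and 2 and 6 on ribosomal protein genes.

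Testis copies of the proteasome and of the respiratory chain lay further towards lower levels in U2af38 RNAi than the standard subunits did. *Drosophila* spermatids use a proteasome in which several subunits are replaced by testis-specific paralogs. Of 14 such paralogs, 9 were lower and 2 higher (median -0.57), and of 32 standard subunits, 5 were lower and 16 higher (median 0.15). The directions depended on the scaling, which moves every list alike: on library size alone the medians were -0.049 and 0.67, and on ribosomal protein genes -0.93 and -0.21. *Prosbeta2R2* was at 15.6, 14.7 and 16.7 CPM against 98.9, 100 and 91.3 (-2.63, SE 0.069, adjusted p = 1.74e-11, edgeR) and *Prosbeta5R1* at 55.1, 61.6 and 54 against 158, 164 and 180.1 (-1.55). *Prosbeta2R1*, a testis copy of the same subunit as *Prosbeta2R2*, was higher (97.6, 103 and 91.7 against 77.8, 85.4 and 90.4 CPM, 0.21), and it turned to -0.16 with scaling on ribosomal protein genes. Among the standard subunits, the lid subunit *Rpn6* was at 401, 405 and 405 against 416, 438 and 448 CPM and did not pass the test (-0.11, adjusted p = 0.0843, edgeR), and the ATPase *Rpt2* was lower, at 70.4, 72.4 and 71 against 150.2, 154 and 146 (-1.07). *Prosalpha1* had the largest rise (0.95) but was read at 0.948 CPM in SRPK RNAi, and it has a near-identical copy, so its count is uncertain.

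In the respiratory chain, of 22 testis paralogs of its nuclear-encoded subunits, 14 were lower and 4 higher (median -0.93), and of 57 standard nuclear genes tested, 24 were lower and 16 higher (median -0.10). These medians were -0.41 and 0.42 on library size alone and -1.29 and -0.45 on ribosomal protein genes. *COX4L*, a copy of cytochrome c oxidase subunit 4, was at 88, 91.9 and 96.2 CPM against 544, 535 and 580.5 (-2.59, SE 0.064, adjusted p = 1.23e-11, edgeR), and *SdhAL*, a copy of the succinate dehydrogenase flavoprotein, at 23.6, 30.3 and 33.2 against 169, 195 and 197 (-2.69). *COX7AL2*, a paralog near the floor in SRPK RNAi, was higher, at 2.34, 2.26 and 2.78 against 0.121, 0.427 and 0.135 CPM. Some standard genes were lower too: *UQCR-C1*, a core protein of complex III, was at 232, 244 and 234 against 455, 509 and 498 (-1.04) and *UQCR-Q* at 62.9, 52.1 and 59.8 against 169, 182 and 199.5 (-1.65), whereas *ND-B8*, a complex I subunit, was higher (2.60). Of 16 genes of the mitochondrial genome that passed the filter, 12 were lower and 0 higher (1 higher and 2 lower on library size alone). Over all 37 in the table the summed level was 16680, 15270 and 13600 CPM in U2af38 RNAi, against 22800, 19870 and 19680 in SRPK RNAi. On library size alone these sums overlap. *mt:ND6* was at 3.2, 4.63 and 6.97 against 8.91, 12.3 and 19.8 CPM, and the small ribosomal RNA *mt:srRNA* at 8316, 6994 and 6810 against 9241, 8931 and 8289 (-0.26, but 0.26 on library size alone).

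**Figure D4:**
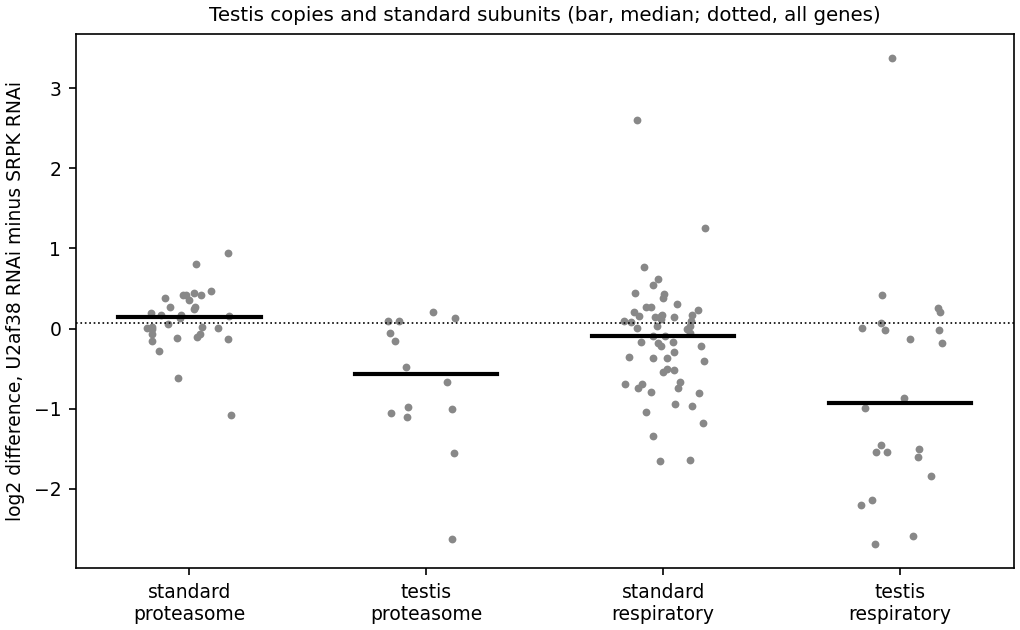
Log2 difference (U2af38 RNAi minus SRPK RNAi, vertical axis) of each tested gene (points) among standard and testis-specific proteasome and respiratory chain subunits, with medians as bars and the median of all tested genes dotted. Medians are 0.15 and -0.57 for the proteasome pair and -0.096 and -0.93 for the respiratory pair, and the members of each testis set spread over more than 2 log2 units.

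Genes of protein synthesis and splicing differed by list, and the cytoplasmic ribosomal protein genes were the ones most often higher in U2af38 RNAi. Of 87 cytoplasmic ribosomal protein genes, 71 were higher in U2af38 RNAi and 2 lower, with a median of 0.38 and quartiles of 0.24 and 0.49. The lower ones included *RpL10Aa*, a gene copy read mainly in testis (86.5, 90.5 and 87.7 against 154, 156 and 181 CPM, -0.89). *RpS29* did not pass the test (-0.11), and the largest rise belonged to *RpS28a*, a copy near the floor (1.89, 1.59 and 2.58 against 0.283, 0.815 and 0.135 CPM). Their summed level was 21200, 21590 and 19820 CPM in U2af38 RNAi, against 16740, 16350 and 15760 in SRPK RNAi, without overlap. Mitochondrial ribosomal proteins, by contrast, had a median equal to that of all genes (0.067), with 27 of 71 tested higher and 14 lower (10 and 38 with scaling on ribosomal protein genes). Examples were *mRpS5* at 44.6, 39 and 40.1 against 13.4, 11.3 and 13.5 CPM, *mRpL28* at 25.4, 28 and 24.6 against 55.9, 54.5 and 50.2 and *mRpS17* at 58.4, 58.2 and 55.4 against 73.4, 73.6 and 76.2. With scaling on the ribosomal protein genes themselves, 20 cytoplasmic ones were higher and 20 lower, which that scaling sets by construction.

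Core spliceosome genes were more often higher, 18 of 32 against 8 lower (median 0.25), although 9 were higher and 14 lower with scaling on ribosomal protein genes. *Prp6*, which bridges the U4/U6 and U5 particles of the tri-snRNP, was at 96.6, 91.5 and 98.5 CPM against 28.6, 29.3 and 28.1 (1.74, SE 0.058, adjusted p = 7.13e-11, edgeR). *Prp8*, the central protein of the U5 particle, was at 195, 196 and 201 against 225, 206 and 189 CPM and did not pass the test (-0.071). *Cwc25*, a splicing factor of the catalytic stage, was lower (10.3, 10.7 and 10.5 against 19.9, 22.9 and 22.6 CPM, -1.05). SR proteins, the substrates of SRPK, differed less at the RNA level: 6 of 10 did not pass the test, 3 were higher and 1, *tra2*, was lower (53.9, 60.9 and 58.3 against 121, 110 and 94.4 CPM, -0.91). *SF2*, the fly SRSF1, was at 119, 131 and 114 against 151, 122 and 118 CPM with overlapping libraries. Without SRPK RNAi replicate 1, 6 were higher and 1 lower. On library size alone 9 of the 10 were higher and 1 lower, and on ribosomal protein genes 1 was higher and 6 lower. The genes of nonsense-mediated decay, which degrades messages with early stop codons, did not move together: *Upf1*, its helicase, was higher (211, 207 and 240 against 149, 135 and 137 CPM, 0.65), *Upf3* (19, 19.2 and 19.5 against 45.7, 44.2 and 47.9, -1.26), *Upf2* (-0.80) and *Smg5* (138, 135 and 147 against 217, 201 and 216, -0.59) were lower, and the junction complex member *tsu* (-0.19) did not pass the test. Of 10 decay and exon junction complex genes, 3 were higher and 5 lower. These counts were 6 and 2 on library size alone and 1 and 7 on ribosomal protein genes, so the direction of the list depends on the scaling.

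Y-linked gigantic genes were mostly lower in U2af38 RNAi. These genes carry introns that reach megabases. Over the 8 Y-linked gigantic genes the summed level was 246, 263 and 267 CPM in U2af38 RNAi, 454, 400 and 469 for SRPK RNAi and 1214, 1190 and 1308 in control. Against each other, 5 were lower in U2af38 RNAi, 1 was higher and 2 did not pass the test. With library size alone 5 were lower and 3 higher, and with ribosomal protein genes 7 were lower and 1 higher. *PRY*, the largest fall, was at 3.12, 3.45 and 3.35 CPM against 16.2, 13.8 and 16.8 (-2.23, SE 0.10), and *kl-3*, the gene of the junction sequences, at 108, 112 and 108 against 209, 169 and 193 (-0.80, SE 0.07, adjusted p = 3.82e-07, edgeR). *kl-2*, another axonemal dynein heavy chain, was the higher one by the main scaling: at 49.4, 51.8 and 55.9 CPM in U2af38 RNAi, against 36.4, 34 and 34.3 in SRPK RNAi (0.59, SE 0.055, adjusted p = 8.11e-07, edgeR), both far under the 190, 186 and 197 of control. This gene was therefore lower in SRPK RNAi. *WDY* (-0.27) and *CCY* (-0.14) were not separated by the test. Among 3 autosomal gigantic genes, *Pzl* was at 43.5, 40.8 and 45.9 against 46, 35.4 and 40.4 CPM with overlapping libraries (0.10, adjusted p = 0.328, edgeR), against 91.1, 81.7 and 82.4 in control, and *Myo81F* was lower (3.04, 2.78 and 3.87 against 8.14, 7.68 and 7.76, -1.28).

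Of 4 other Y-linked coding genes, 3 were lower and 1 higher. *ARY*, an aldehyde reductase gene, was at 15.1, 14.9 and 16.4 CPM against 63.5, 65.3 and 77.7 (-2.15, SE 0.081), and *FDY*, a young Y copy of the autosomal *vig2*, at 56, 55.8 and 54 against 38.7, 38.5 and 32.5 (0.60). *Pp1-Y1*, a protein phosphatase gene, was at 2.05, 1.67 and 1.81 CPM in U2af38 RNAi, against 10.2, 10.4 and 10.1 in SRPK RNAi (-2.47, SE 0.17) and had no fragment in any of the 3 control libraries, so the control libraries stand apart from both knockdowns here. Whether the control flies carried the same Y chromosome was not tested, and this bears on every Y-linked level set against control.

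Gene structure was compared over tested protein-coding genes, with exons merged over isoforms into blocks, so that a gene of 1 block can still have an annotated intron. Of 1897 genes with 1 block, 44.7% were lower in U2af38 RNAi and 36.7% higher (median -0.12). Genes with 2 blocks had 35.2% lower and 43.8% higher (median 0.10), and medians were 0.032, 0.053 and 0.068 for 3 to 5, 6 to 10 and more than 10 blocks. By the longest gap between blocks, the median rose from -0.046 under 100 bp to 0.06 at 100 bp to 1 kb, 0.11 at 1 to 10 kb and 0.32 at 10 to 50 kb, where 424 of 781 genes were higher and 231 lower. Beyond 50 kb it was 0.024 over 65 genes. With introns taken within single annotated isoforms, the medians at 10 to 50 kb and beyond 50 kb were 0.24 and 0.18. All of these medians lie between the quartiles of all genes (-0.74 to 1.07), and for classes with more than 1 block several turned sign relative to all genes when genes with low counts were dropped.

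By chromosome, protein-coding genes of the X were lower in U2af38 RNAi in 33.9% of 1998 cases and higher in 42.7%. Over all tested genes these shares were 37.6% and 42.3%. The shares lower were 41.5%, 40.2%, 37.4% and 38.8% on 2L, 2R, 3L and 3R, and 38.8% of 80 genes on chromosome 4. The shares higher were 39.5%, 39.8%, 42.3% and 42.3% on the same arms and 31.25% on chromosome 4. Of the dosage compensation and sex determination genes, 5 of 11 were lower and 1 higher, and with library size scaling the count turned to 7 higher and 1 lower. The histone acetyltransferase *mof* was at 46, 48.2 and 45.3 against 27.5, 24.7 and 21.5 CPM (0.92), the helicase *mle* at 43.2, 43.9 and 44.1 against 77.9, 72.1 and 66.2 (-0.72), and the RNA *lncRNA:roX1* did not pass the test (-0.042). By gene type, 934 of 2004 tested noncoding RNA genes (46.6%) were higher and 685 (34.2%) lower, near the 42.3% and 37.6% of all genes. Some can have passed the filter through U2af38 RNAi alone. The median of noncoding RNA genes relative to all genes turned from 0.35 to -0.42 among genes with at least 10 counts in every RNAi library. Their summed level over all 2538 was 12890 to 13610 CPM in U2af38 RNAi and 16680 to 17930 in SRPK RNAi. By the TMM factors given above, this order reverses on library size alone, so it depends on the scaling. Over all 312 tRNA genes, most of them untested, the summed level was 30.5 to 36.3 against 8.14 to 9.2 CPM. Over all 269 snoRNA genes it was 50.3 to 63.4 against 23.1 to 37.7 CPM.

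Most of the largest rises were in genes that control testes hardly read. The 10 genes with the largest excess in U2af38 RNAi were *Muc4B*, *Ret*, *Antdh*, *gprs*, *pdm2*, *Gad1*, *beat-Ic*, *Kif19A*, *LUBEL* and *jef*. All but *LUBEL* were under 2 CPM in every SRPK RNAi and control library. A ranking by the difference favours genes low in SRPK RNAi, so their low level there comes in part from the choice. *Muc4B*, a mucin gene (chromosome X, 4244095 to 4246139), was at 0.162, 0.388 and 0.18 CPM in SRPK RNAi and 72.3, 70.5 and 76 in U2af38 RNAi (8.17, SE 0.19, adjusted p = 9.75e-12, edgeR). *Ret*, a receptor tyrosine kinase, was at 94.6, 98.2 and 99.5 against 1.13, 0.737 and 0.631 CPM (6.85, SE 0.17). *Gad1*, the glutamate decarboxylase that makes the neurotransmitter GABA, was at 79.5, 78 and 72.6 against 1.54, 1.36 and 1.26 (5.78, SE 0.15). *LUBEL*, a linear ubiquitin ligase, was read throughout and differed as much, at 223, 206 and 242 against 3.65, 4.27 and 5.46 CPM (5.65, SE 0.14). The POU transcription factor *pdm2* (6.14), the axon guidance gene *beat-Ic* (5.76), the alcohol dehydrogenase family gene *Antdh* (6.40), the kinesin gene *Kif19A* (5.76), *gprs* (6.38) and *jef* (5.65) complete the set, and their folds rest on few SRPK RNAi fragments.

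At the other end, the 10 genes with the largest deficit were all read at more than 7 CPM in every control and SRPK RNAi library. The rule asked for a mean of at least 10 CPM in SRPK RNAi, so their level there comes in part from the choice. *scpr-B*, a secreted cysteine-rich protein gene (chromosome 3R, 11240041 to 11240991), was at 972, 1003 and 961 CPM in SRPK RNAi and 10.9, 23.1 and 24.4 in U2af38 RNAi (-5.65, SE 0.24, adjusted p = 5.74e-10, edgeR), and its neighbour *scpr-C* at 40.1, 81.1 and 79.6 against 1365, 1412 and 1399 (-4.38). The 2 are close copies, so their separate counts are uncertain. *lobo*, a component of the dynein regulatory complex of the flagellum needed by sperm, was at 10.4, 12.5 and 17.4 against 232, 237 and 253 CPM (-4.17, SE 0.14). *ms(2)35Ci*, at a male-sterile locus, was at 4.27, 3.97 and 5.68 against 102, 118 and 134 (-4.67), and *Tret1-2*, a trehalose transporter family gene, at 3.28, 3.75 and 4.35 against 67.8, 68.7 and 73.4 (-4.20). The acylphosphatase *Acyp* (-4.54), the carbonic anhydrase *CAH5* (-4.68), the mucin *Muc30E* (-4.50) and *TwdlP* of the Tweedle family (-4.96) were similar in size. *e* (ebony), which makes beta-alanyl amines, was also far apart, but its SRPK RNAi libraries at 22.4, 21.2 and 14.3 CPM lay above the control libraries at 8.62, 9.26 and 7.52, with 0.534, 0.779 and 0.484 in U2af38 RNAi (-4.99, SE 0.22).

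**Figure D5:**
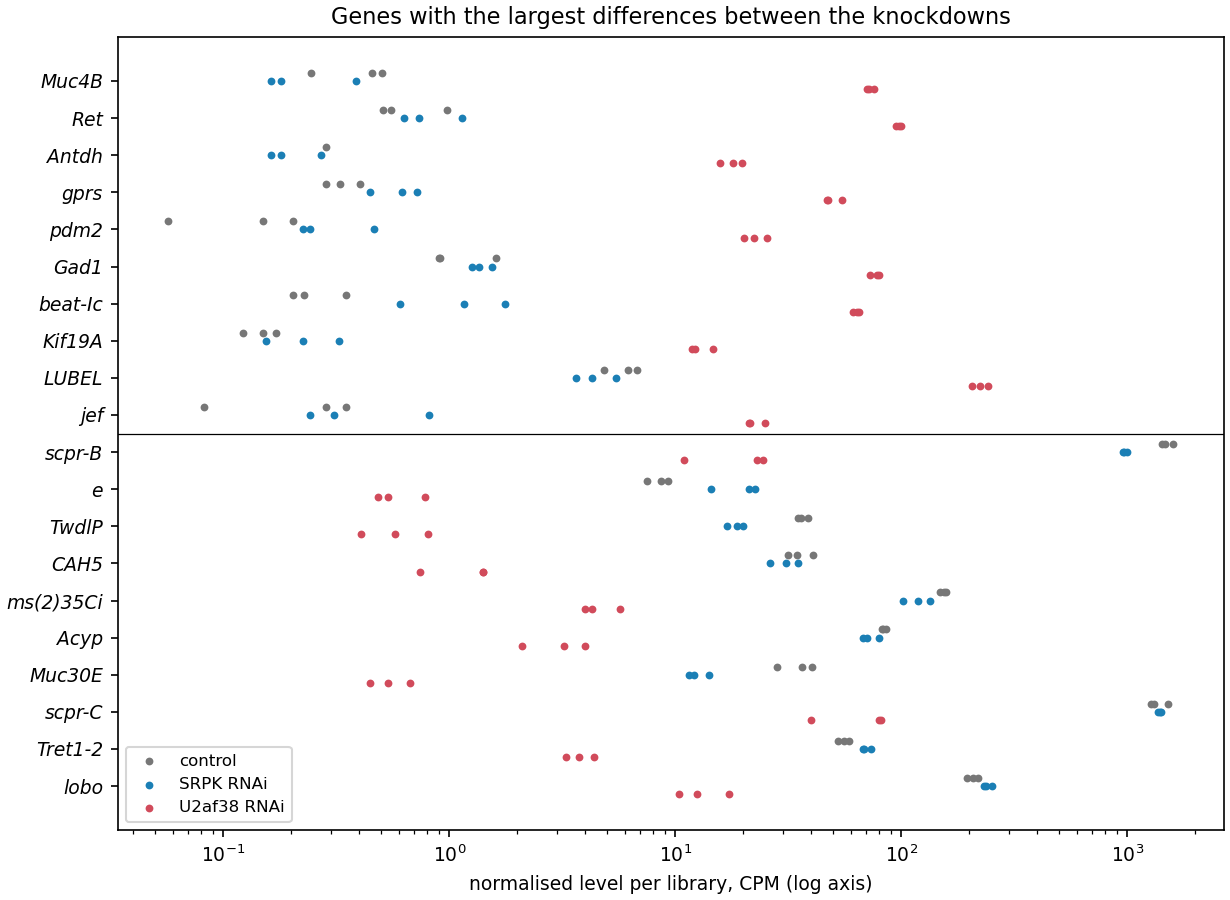
Normalised level (CPM, log axis) in each of the 9 libraries of the 10 genes with the largest excess (above the line) and the 10 with the largest deficit (below the line) in U2af38 RNAi, with 1 point per library; the 2 control libraries of Antdh at 0 fall off the axis. The U2af38 RNAi points lie away from all control and SRPK RNAi points in each gene, and control and SRPK RNAi also differ in some, such as beat-Ic, e and Muc30E.

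For a smaller group the control level was nearer to U2af38 RNAi. By a rule added after the values were seen (called between the knockdowns, control nearer to U2af38 RNAi, U2af38 RNAi not passing the test against control, at least 10 CPM in one knockdown and more than 3 fragments in every RNAi library), 524 protein-coding genes met it, 374 of them lower in U2af38 RNAi and 150 higher. The rule did not ask that SRPK RNAi differ from control, and 416 of the 524 passed that test. *Cyp28d2*, a cytochrome P450, was at 42.5, 38.6 and 43.6 CPM in SRPK RNAi, 9.4, 10.2 and 11.8 in U2af38 RNAi and 8.57, 8.24 and 10.4 in control. *ple* (pale), the tyrosine hydroxylase of dopamine synthesis, was at 36.7, 29.2 and 24.7, 7.06, 9.05 and 6.97 and 10.3, 8.92 and 8.41 CPM in the same order, and *caup*, an Iroquois homeodomain factor, at 11, 13.3 and 12.2, 3.12, 3.52 and 2.98 and 2.46, 3.3 and 3.88. *Cog8*, a Golgi tethering subunit, averaged 23.1, 7.5 and 8.21 CPM. *HSPBAP1* spread widely, at 4.82, 12.9 and 22.5 CPM in SRPK RNAi, where 1 library lay within the control values of 5.26, 4.38 and 4.53. In the opposite direction, *Eaat1*, a glutamate transporter of glia, was at 5.06, 6.98 and 5.37 CPM in SRPK RNAi and 13.6, 13.5 and 11.9 in U2af38 RNAi, with 11.6, 12.9 and 12.1 in control. *Cyp310a1* averaged 12.8 and 26.7 CPM, and *stops* (0.85), *Tm2* (0.81) and *GlcAT-P* (0.81) differed less.

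Somatic cells of the testis and tissues next to it were examined with marker lists. The 13 markers of hub and cyst cells, the somatic niche and envelope of the germ cells, had 5 members higher and 5 lower in U2af38 RNAi (9 and 3 on library size alone). Their summed level was 433, 442 and 451 CPM against 503, 471 and 452, an order that reverses on library size alone. *Egfr*, the receptor in cyst cells that answers germ cell signals, was at 54.1, 51.1 and 57.6 against 23.6, 22.9 and 21.6 CPM (1.26, SE 0.069), *shg* (E-cadherin) at 82.2, 85.5 and 85.3 against 144, 137 and 133 (-0.71) and the eye and gonad factor *so* at 7.31, 8.97 and 8.91 against 19.2, 18.9 and 17.7 (-1.15), while *upd1*, the hub ligand, did not pass the test (-0.044). Muscle sheath markers summed to 2015, 1811 and 2003 CPM against 2016, 2147 and 2543, so that the nearest libraries almost meet. On library size alone the U2af38 RNAi sums are the higher ones. The titin-like *sls* did not pass the test (0.033), paramyosin *Prm* was at 82, 74.8 and 77.9 against 31.5, 34.3 and 50 (1.02), and *Act87E*, listed as a muscle actin, was at 58.3, 66.7 and 70.8 against 611, 698 and 743 CPM (-3.39, SE 0.10). Fat body and hemocyte markers summed to 320, 311 and 329 CPM against 129.7, 120.3 and 118. Most of this was *Hml*, hemolectin of hemocytes (236 against 34.6 CPM, 2.77), whereas *Hmu* differed by -0.15 and *Yp2*, a yolk protein, was at 0.698, 0.89 and 1.05 against 0, 0 and 0.135 CPM. The part of other tissues in these differences was not tested.

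Accessory gland genes, which encode seminal proteins of a neighbouring gland, differed between libraries rather than knockdowns. Over 13 markers the summed level was 17.7, 765 and 1437 CPM in the 3 SRPK RNAi libraries, 267, 18.3 and 19.9 in the 3 U2af38 RNAi libraries and 620.3, 14.2 and 478 in control. *Acp36DE* was at 14.2, 420.2 and 836 and 143, 8.23 and 8.87 CPM, with overlap (-2.99, SE 1.42, adjusted p = 0.0704, edgeR). Although the median of the list was -2.46, only 1 of 11 tested members was lower, *Acp95EF* (1.44, 0.297 and 0.645 against 0.689, 8.18 and 3.74 CPM, overlapping), and 1 was higher, *Dup99B*, which was near the floor in SRPK RNAi (0.575, 1.33 and 1.37 against 0, 0.0388 and 0). One library decided this count: 10 of 11 were lower without SRPK RNAi replicate 1 (median -3.05), and 9 without U2af38 RNAi replicate 1 (median -4.04).

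Stress and genome-defence genes differed gene by gene. Of 20 heat shock genes tested, 9 were higher and 5 lower, which turned to 6 and 8 with scaling on ribosomal protein genes. The lower ones included the testis-expressed chaperonin copy *Hsp60C*, at 622, 641 and 672 against 1730, 1928 and 1998 CPM (-1.55, SE 0.081). The *Hsp70B* genes are near-identical copies and went opposite ways, *Hsp70Ba* at 2.63, 8.16 and 6.01 against 0.608, 1.16 and 1.44 CPM and *Hsp70Bc* at 1.56, 2.71 and 3.06 against 6.72, 10.8 and 10.6, which is uncertain. Among stress and cell death regulators, the death gene *rpr* (reaper) was lower (0.698, 0.89 and 0.806 against 3.65, 2.64 and 2.25 CPM, -1.83), *skl* (sickle) was higher but below 0.5 CPM, and the stress factor *Xrp1* did not pass the test (0.11). In the piRNA pathway, which silences transposons, *papi*, a Tudor protein of mitochondria, was at 51, 55.2 and 53.5 against 259, 287 and 299 CPM (-2.40, SE 0.062, adjusted p = 1.51e-11, edgeR), and the helicase *spn-E* at 121, 124 and 122 against 77.4, 74.7 and 73.4 (0.71). *piwi* (0.03), *aub* (0.068) and *AGO3* (0.16), the Argonautes of the pathway, did not pass the test. Of 116 histone genes, most of them repeated copies whose multi-mapped fragments were not counted, 7 were tested. *His3.3B*, a replacement histone H3, was at 356, 377 and 338 against 272, 234 and 239 CPM (0.52), *cid*, the centromeric histone, at 9.15, 10.8 and 10.4 against 3.73, 3.84 and 4.19 (1.36), and *His2B:CG17949* was near the floor (-1.69).

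Families were also formed from shared gene symbols alone. Of 69 symbol families with at least 10 tested members, the 5 with the highest medians were *Jon*, gut serine proteases, *Muc*, mucins, *Or*, odorant receptors, *ppk*, sodium channels of the pickpocket type, and *beat*, axon guidance proteins. Their tested members can have passed the filter through U2af38 RNAi alone, so no counts are given for them. The 5 lowest medians belonged to *Acp* (-2.57, 1 of 14 lower), *Mst*, named for male-specific transcripts (-1.68, 18 of 21), *Sfp*, seminal fluid proteins (-1.28, 3 of 14), *mt*, the mitochondrial genome (-0.72, 11 of 12), and *S*, mostly the sperm leucyl aminopeptidases (-0.71, 10 of 12). The 2 seminal families share the library-to-library spread of the accessory gland markers, whereas *Mst*, *mt* and *S* were lower in most members by the main scaling. For *mt* this depends on the scaling, as given above for the mitochondrial genome.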

How the data were processed

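Total RNA (500 ng per library, ribosomal RNA depleted, stranded) was sequenced from testes in 3 libraries each of Control, U2af38 RNAi and SRPK RNAi. The authors aligned reads to dm6 with STAR 2.7.1a and deposited counts of fragments per FlyBase 6.37 gene from featureCounts 1.6.2, 2 lane columns per library. Fragments that map to many places or overlap exons of more than 1 gene on the same strand were not counted.

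Lanes were summed. All 18 value columns matched a sample and 0 did not. Counts were scaled by TMM, filtered with filterByExpr and fitted over all 9 libraries with edgeR 4.0.16 (quasi-likelihood test, R 4.3.3) for U2af38 RNAi minus SRPK RNAi, with Benjamini-Hochberg adjustment over 14941 genes and a threshold of 0.05. CPM is the count relative to the scaled library total. A list is described by its calls and median, with no test. Lists were summed over all members, tested or not. 5 list symbols were not analysed here. The fit was also run on simulated counts in which few genes differed between the knockdowns, equally in both directions. That setting does not cover data in which most genes differ, as here, so it leaves the choice of scaling untested.

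Genes were named by this rule: the targeted genes, the 10 largest called differences per direction (non-overlapping libraries, at least 10 CPM in the higher knockdown, more than 3 fragments in every library of the lower, a symbol other than CG or CR with a number), and per list the member with the largest control CPM and the called members with the largest rise and fall, and the 5 symbol families with the highest and the 5 with the lowest medians. Some genes that the rule names are not reported here. Other genes were named after their values were seen. The members and lists were chosen with earlier results of these data known, and the sets at the floor in control and near control in U2af38 RNAi were added after the values were seen.

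Alternatives were DESeq2 1.42.0, other filters and scalings, a replicate block, the 6 RNAi libraries alone, leaving out each library, each lane alone and a minimum difference. Depth ran from 18497748 to 30002574 fragments, and intervals of the floor of 3 fragments cover counting error only.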

Additional observations from a re-analysis of the deposited data

How the results depend on the processing

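The counts of 6313 higher and 5622 lower genes were 6541 and 5250 with DESeq2, 6680 and 5788 with no filter, 4752 and 4674 among genes with at least 10 counts in every RNAi library, 6112 to 6402 and 5460 to 5610 without each RNAi library in turn, and 6269 and 5612 with the replicate block. Deviations of same-numbered U2af38 and SRPK RNAi libraries from their group means correlated negatively (r of -0.41, -0.159 and -0.148). These values cannot exclude a batch shared by replicate number, and the main fit used no pairing. The block left 124 of 126 named genes on their side of the threshold and moved 2 past it. Scaling mattered more: 9069 and 3470 with library size only, 8094 and 4186 with upper quartile and 4583 and 7451 with ribosomal protein genes. A minimum log2 difference of 1 left 3203 and 2299. Differences near 0 changed sign. With library size only, tbrd-2 was 0.021, alphaTub84B 0.17, SF2 0.42, Prp8 0.45, lncRNA:roX1 0.48, Hmu 0.37, RpS29 0.41, mRpS17 0.15, Rpn6 0.42 and mt:srRNA 0.26. With upper quartile, SF2 was 0.22, Prp8 0.25, lncRNA:roX1 0.275, Hmu 0.17, RpS29 0.21, Rpn6 0.21 and mt:srRNA 0.061. With ribosomal protein genes, cnn was -0.35, Pzl -0.26, Xrp1 -0.25, Prosbeta2R1 -0.16 and sls -0.32. With at least 10 counts, SF2 was 0.0498, Prp8 0.075, lncRNA:roX1 0.10, RpS29 0.034 and Rpn6 0.0402. cnn was -0.021 with no filter, and lncRNA:roX1 was 0.0197 with DESeq2, 0.019 with RLE factors and 0.000602 and 0.035 in lanes 1 and 2. Without each library in turn, cnn ranged from -0.028 to 0.032, Pzl from -0.0023 to 0.19, SF2 from -0.17 to 0.015, lncRNA:roX1 from -0.12 to 0.021 and sls from -0.048 to 0.11. Relative to the median of all genes, 12 of 64 class medians changed sign by more than the spread between libraries with at least 10 counts and 6 of 63 where genes averaged 1 CPM or more. A change of scaling moves all genes alike and cannot change these signs. The cause was not tested. Levels under the floor of 3 fragments are limited by depth.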
